A study of Mus musculus with 26 samples.

Results

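The neurotrophins BDNF and NT-3 and their receptors were followed through 5 comparisons of mouse striatum in models of Huntington's disease. The members were the 6 genes Bdnf, Ntf3, Ntrk2, Ntrk3, Ngfr and Sort1, chosen by symbol out of 14833 genes listed in at least 1 deposited table. All 6 were listed in 4 tables, and 5 in the table of Elk-1 AAV, where Ntf3 has no row. R6/1 mice, which carry exon 1 of human huntingtin as a transgene, were set against wild-type mice at 4 weeks and at 8 weeks, with 3 libraries in each of the 4 groups. CHL2 mice, a huntingtin knock-in line, were set against wild-type mice at 1 year, again with 3 libraries each. At 10 weeks, R6/1 striatum given an adeno-associated virus (AAV) with Elk-1 (4 libraries) was set against R6/1 striatum given a control AAV (2 libraries), and the same control-AAV R6/1 libraries were set against control-AAV wild type (2 libraries). The control vector appears as mCherry in the group names of the tables, and the 3 groups at 10 weeks share the AAV injection. The promoter and dose of the vectors, the sex of the animals and whether each library came from a separate animal are not stated in the sources at hand.

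BDNF and NT-3 are secreted growth factors made as longer precursors. BDNF acts through the receptor tyrosine kinase TrkB, encoded by Ntrk2, and NT-3 mainly through TrkC, encoded by Ntrk3. The p75 receptor, encoded by Ngfr, binds mature neurotrophins and, with sortilin (Sort1), their uncleaved precursors. Striatal projection neurons express TrkB, but most of the BDNF protein that reaches them is made in the cortex and carried down corticostriatal axons, a supply much studied in Huntington's disease.

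None of the 29 member values passed the authors' Cuffdiff test, since 0 members had a deposited q below 0.05 in any table. By that rule 0.468% of all genes were called at 4 weeks (0.275% higher, 0.193% lower), 6.12% at 8 weeks and 3.65% in CHL2. The share was 3.24% for control-AAV R6/1 against control-AAV wild type and 0.575% for Elk-1 AAV. An unadjusted p below 0.05 in the authors' deposited tables was held by 1 member at 4 weeks (5.36% of all genes), by 3 at 8 weeks (14.3%) and by 2 in CHL2 (13.3%). It was held by 1 member in the control-AAV comparison (10.7%) and by 0 for Elk-1 AAV (4.91%). No member is therefore said to have risen or fallen. The values below are the authors' FPKM (fragments per kilobase of transcript, scaled to library size), 1 pooled value per group, so no spread between libraries can be given, and a p that misses the threshold does not show that a level was the same. The tables were normalised separately, so levels set across them are approximate. The control-AAV R6/1 group, which stands in 2 tables, had 5.16 FPKM of Bdnf in one and 5.28 FPKM in the other. In whole striatum, fewer cells of a type and less RNA per cell cannot be told apart.

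The check of the overexpressed gene went with its label. Elk1 stood at 30.1 FPKM in Elk-1-AAV R6/1 and 15.1 FPKM in control-AAV R6/1 (log2 fold change 1.00 with q = 0.0122 in the authors' deposited table). Of the 18 markers of striatal projection neurons, all 18 were listed in every table and none was at 0. Their summed FPKM was 3237 in R6/1 and 4068 in wild type at 4 weeks, 1871 in R6/1 and 4644 in wild type at 8 weeks, 2322 in CHL2 and 4246 in wild type, 1633 in control-AAV R6/1 and 3454 in control-AAV wild type, and 2029 in Elk-1-AAV R6/1 and 1673 in control-AAV R6/1.

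**Figure D1:**
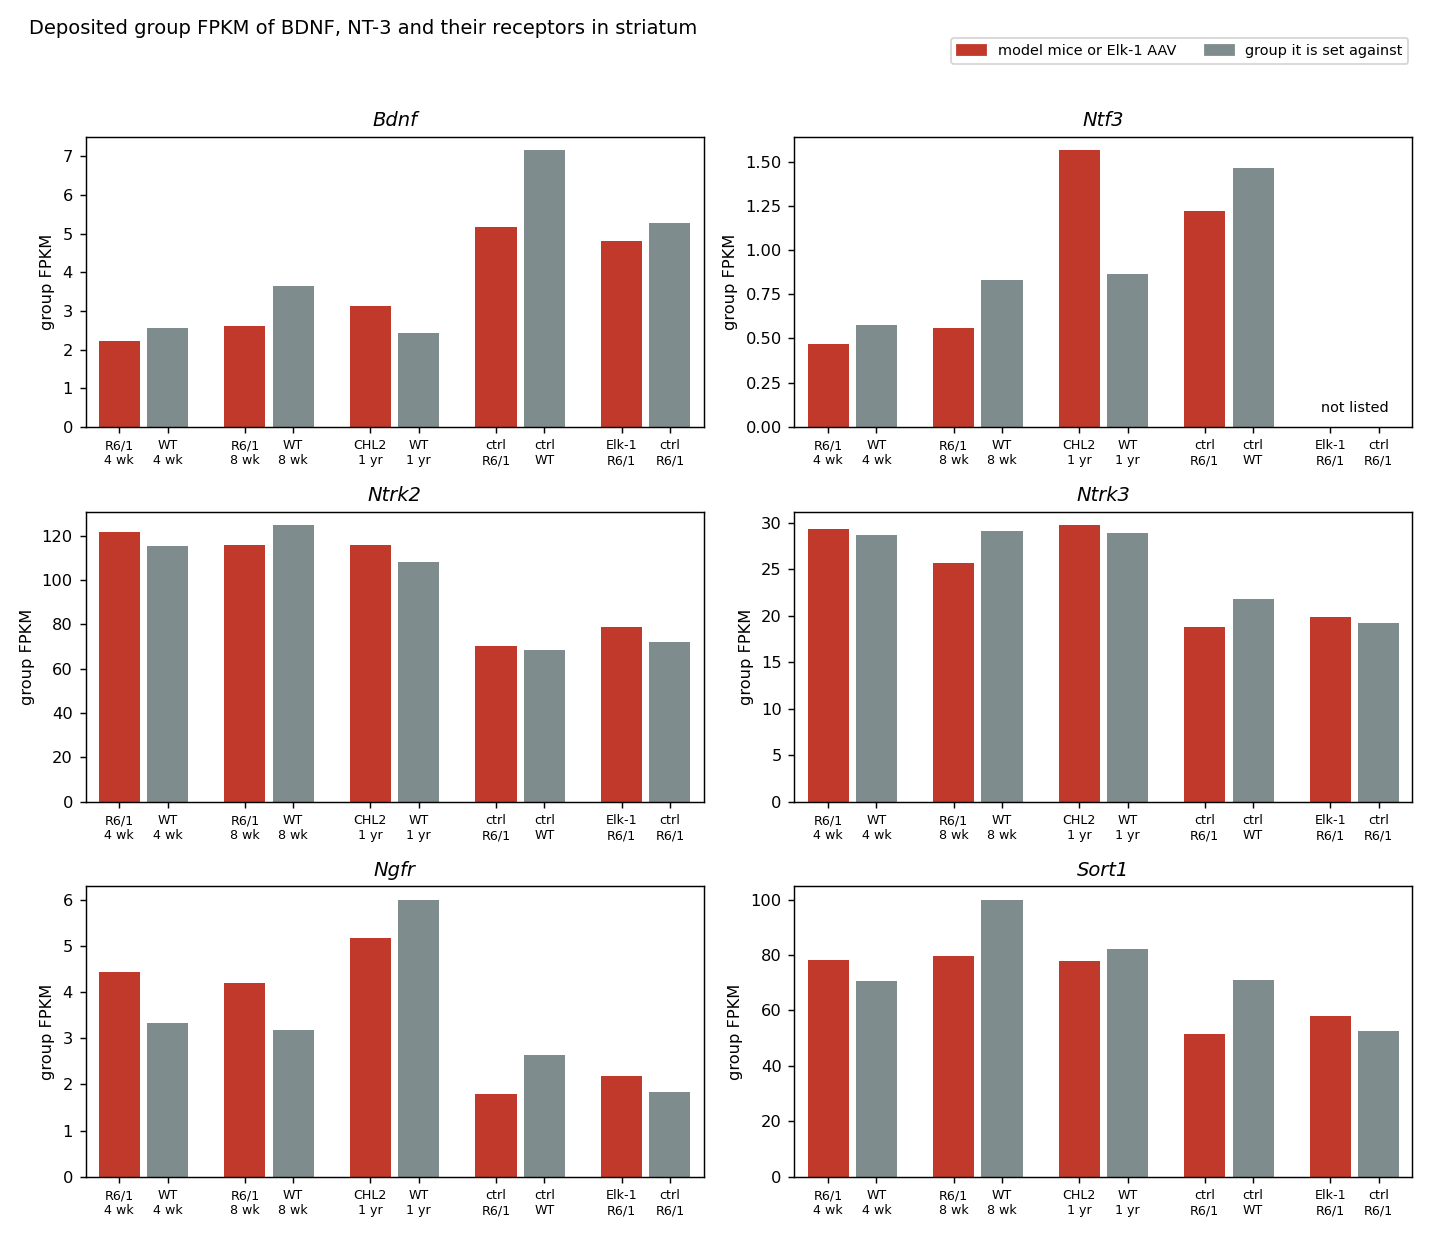
Deposited FPKM per group (y axis, linear from 0, a scale of its own for each gene) for the 6 genes; each bar is 1 pooled value and carries no error bar, red bars are model mice or Elk-1 AAV, and grey bars the group each is set against. Bdnf reached its highest value, 7.15, in control-AAV wild type, and stood higher in every AAV group than in the untreated ones. Ntrk2, Ntrk3 and Ngfr stood lower in every AAV group than in the untreated ones.

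Bdnf, on chromosome 2 (mm9, 109514856 to 109567200), was a lowly expressed gene in these striata. It lay between 2.21 and 7.15 FPKM over the 10 group values, above 18.2% to 35.8% of the listed genes. At 4 weeks it stood at 2.21 FPKM in R6/1 and 2.57 FPKM in wild type (log2 fold change -0.22, p = 0.191, q = 0.999 in the authors' deposited table). At 8 weeks it stood at 2.61 FPKM in R6/1 and 3.65 FPKM in wild type (log2 fold change -0.49, p = 0.0137, q = 0.152 in the authors' deposited table). That was the smallest q of any member in any table, and 9.04% of the genes at 8 weeks had a p as low. In the control-AAV comparison it stood at 5.16 FPKM in R6/1 and 7.15 FPKM in wild type (-0.47, p = 0.0708, q = 0.555 in the authors' deposited table). R6/1 thus had the lower Bdnf value in all 3 tables that compare it with wild type, which share no group. CHL2 had the higher one, 3.12 FPKM against 2.43 FPKM in wild type (0.36, p = 0.0452, q = 0.357 in the authors' deposited table). Whether the CHL2 and R6/1 effects differ was not tested. With Elk-1 AAV, Bdnf stood at 4.81 FPKM, against 5.28 FPKM with control AAV (-0.13, p = 0.581, q = 0.999 in the authors' deposited table).

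Bdnf is transcribed from several promoters, each joined to the same coding exon, and 1 FPKM per gene does not separate them. RefSeq (GRCm38.p6) gives it 7 start windows in the table used here, Ntf3 2, and Ntrk2 and Ngfr 1 each; Ntrk3 and Sort1 were not found there. Because Elk-1 binds ETS sites and Bdnf is a classic CREB target, the 250 bases before each start were searched on both strands for the ETS core CCGGAA, the cAMP response element TGACGTCA and its half-site TGACG (contained in the full element), the EGR site GCGTGGGCG and the CArG box bound by SRF. The ETS core was found in 1 of the 11 windows, that of Ngfr, and in 12.02% of all 32817 windows. The half-site TGACG was found in 1 of 11, a Bdnf window, and in 17.7% of all. The other 3 motifs, present in 1.55%, 0.536% and 1.47% of all windows, were in none of the 11. The 2 windows with a match are printed with the motif in capitals, 5′ to 3′ on the gene's strand; the Bdnf window is chr2:109692186-109692435 (plus strand), with the half-site on the minus strand starting 35 bases before the start of transcription, and the Ngfr window is chr11:95587699-95587948 (minus strand), with the ETS core on the other strand starting 102 bases before it. A match describes the letters of a window and shows no binding.
Bdnf: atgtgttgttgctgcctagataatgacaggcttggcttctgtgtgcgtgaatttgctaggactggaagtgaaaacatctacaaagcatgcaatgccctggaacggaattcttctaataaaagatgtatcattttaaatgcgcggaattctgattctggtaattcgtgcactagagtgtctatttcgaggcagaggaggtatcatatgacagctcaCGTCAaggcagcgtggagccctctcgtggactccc
Ngfr: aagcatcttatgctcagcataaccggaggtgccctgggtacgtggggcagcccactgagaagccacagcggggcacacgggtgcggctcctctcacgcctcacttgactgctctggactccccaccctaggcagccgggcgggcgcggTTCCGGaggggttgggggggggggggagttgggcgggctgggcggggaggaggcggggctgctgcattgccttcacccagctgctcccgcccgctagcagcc

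Ntf3, on chromosome 6 (mm9, 126051429 to 126116762), encodes NT-3 and was close to the floor of the tables. It ranged from 0.470 to 1.56 FPKM over 8 group values. The lowest larger group value that any row held was 0.408 at 4 weeks, 0.458 at 8 weeks, 0.502 in CHL2, 1.10 in the control-AAV table and 1.26 in the Elk-1 table. Ntf3 read 0.470 FPKM in R6/1 and 0.578 FPKM in wild type at 4 weeks (log2 fold change -0.30, p = 0.436 in the authors' deposited table). At 8 weeks it read 0.561 FPKM in R6/1 and 0.829 FPKM in wild type (-0.56, p = 0.206 in the authors' deposited table). Like Bdnf it had its only higher value in CHL2, at 1.56 FPKM against 0.864 FPKM in wild type. That log2 fold change, 0.86, was the largest of any member in size, with p = 0.0133 and q = 0.177 in the authors' deposited table, and with 1 added to both values it was 0.46. With control AAV, Ntf3 read 1.22 FPKM in R6/1 and 1.47 FPKM in wild type (-0.26, p = 0.688 in the authors' deposited table). Adding 1 to both values brought the other 3 nearer to 0 as well, to -0.10 at 4 weeks, -0.23 at 8 weeks and -0.15 with control AAV.

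**Figure D2:**
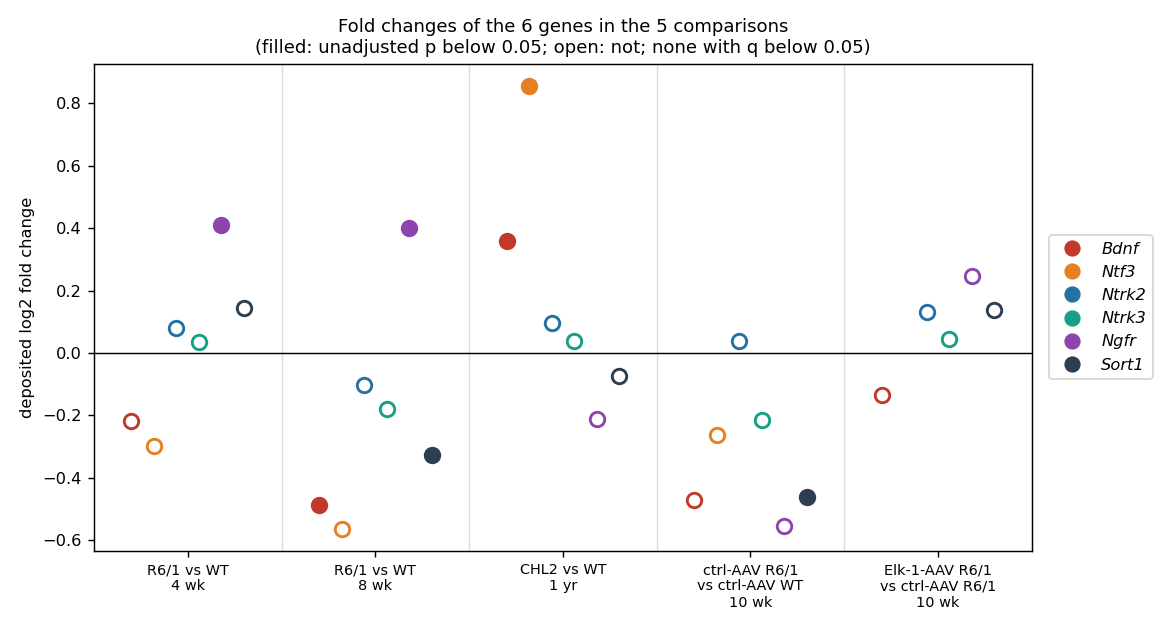
Deposited log2 fold change (y axis) of each gene in each comparison (x axis), with filled points where the unadjusted p was below 0.05 and open points where it was not; a point is 1 gene in 1 table, with no error bar. The points run from -0.56 (Ntf3 at 8 weeks) to 0.86 (Ntf3 in CHL2), which are -0.23 and 0.46 with 1 added to both FPKM values, and Ntrk2 stays between -0.10 and 0.13.

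Ntrk2, on chromosome 13 (mm9, 58907956 to 59231328), was the most abundant of the 6 genes in every group except the control-AAV wild type, where Sort1 was slightly above it (Sort1 70.9 FPKM, Ntrk2 68.4 FPKM). TrkB exists as a full-length kinase and as a truncated form abundant in astrocytes; the gene's FPKM sums both. It stood at 122 FPKM in R6/1 and 115 FPKM in wild type at 4 weeks, and at 116 FPKM in R6/1 and 125 FPKM in wild type at 8 weeks. In CHL2 it stood at 116 FPKM, against 108 FPKM in wild type. The AAV groups lay lower, at 70.2 FPKM in control-AAV R6/1 and 68.4 FPKM in control-AAV wild type, and at 78.7 FPKM in Elk-1-AAV R6/1 against 71.9 FPKM in control-AAV R6/1. The 5 log2 fold changes, from -0.10 to 0.13, had p-values from 0.470 to 0.844 in the authors' deposited tables, the narrowest range of the 6 genes. The positive values at 4 weeks (0.08) and in CHL2 (0.10) turned to -0.054 and -0.043 once the trend of fold change with transcript length was taken out. The 13 astrocyte markers had summed FPKM of 1297 in R6/1 and 1350 in wild type at 4 weeks, 1216 in R6/1 and 1342 in wild type at 8 weeks, 1316 in CHL2 and 1404 in wild type, 1298 in control-AAV R6/1 and 1343 in control-AAV wild type, and 1385 in Elk-1-AAV R6/1 and 1329 in control-AAV R6/1, with none at 0. Of the 13, only Agt was called: higher at 8 weeks (all genes 0.789%) and in the control-AAV comparison (0.724%), and lower under Elk-1 AAV (0.276%). Single astrocyte markers differed in how AAV groups stood to untreated ones across the separately normalised tables. Those named next are a part of the 13, picked outside the naming rule, and the rest are not given in this way. Slc1a2, Slc1a3 and Aqp4 were lower in every AAV group than in every untreated group, as Ntrk2 was. For Slc1a2, a glutamate transporter gene, the AAV groups held 136 to 201 FPKM, against 213 to 351 FPKM in the untreated groups. Gfap, which encodes an intermediate filament of astrocytes, held 79.97 to 129 FPKM in the AAV groups, against 49.2 to 88.5 FPKM in the untreated groups. The part of astrocytes in the Ntrk2 values was not tested.

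Ntrk3, on chromosome 7 (mm9, 85336999 to 85722724), encodes TrkC. Its group values were 29.3 FPKM in R6/1 and 28.6 FPKM in wild type at 4 weeks, 25.7 FPKM in R6/1 and 29.1 FPKM in wild type at 8 weeks, and 29.7 FPKM in CHL2 and 28.9 FPKM in wild type. With control AAV it read 18.7 FPKM in R6/1 and 21.7 FPKM in wild type, and with Elk-1 AAV 19.8 FPKM against 19.2 FPKM with control AAV. The lowest p was 0.163, at 8 weeks (log2 fold change -0.18, as the authors' deposited table gives it). The 3 positive fold changes were small (0.03, 0.04 and 0.05) and each turned negative under 1 alternative: to -0.15 at 4 weeks and -0.16 in CHL2 without the length trend, and to -0.0097 under Elk-1 AAV with small RNA rows left out of the scaling. As for Ntrk2 and Ngfr, the AAV groups had the lowest levels, while for Bdnf they had the highest. The surgery, the age and the separate processing of the AAV tables cannot be told apart.

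Ngfr, on chromosome 11 (mm9, 95430139 to 95449012), encodes p75, which in the adult forebrain is known best from cholinergic neurons. It read 4.44 FPKM in R6/1 and 3.34 FPKM in wild type at 4 weeks (log2 fold change 0.41, p = 0.00905, q = 0.440 in the authors' deposited table). That was the lowest p of any member, shared or undercut by 2.06% of the genes at 4 weeks. At 8 weeks Ngfr was higher by nearly the same amount, 4.2 FPKM in R6/1 and 3.19 FPKM in wild type (0.40, p = 0.0372, q = 0.291 in the authors' deposited table). In the other 2 comparisons with wild type the value was the lower one in the model. CHL2 stood at 5.18 FPKM, against 5.99 FPKM in wild type (-0.21, p = 0.162 in the authors' deposited table). Control-AAV R6/1 stood at 1.79 FPKM, against 2.63 FPKM in control-AAV wild type (-0.55, p = 0.173 in the authors' deposited table). With Elk-1 AAV the level was 2.18 FPKM, against 1.84 FPKM with control AAV (0.25, p = 0.503 in the authors' deposited table).

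The list of 8 cholinergic markers, among them Chat, Slc5a7, Slc18a3, Isl1 and Lhx8, had a summed level of 42.5 FPKM in R6/1 and 39.2 FPKM in wild type at 4 weeks, where 1 of 8 was called, Zic4, lower (log2 fold change -0.77 from the authors' deposited table; all genes 0.193%). At 8 weeks the sums were 32.2 FPKM in R6/1 and 34.1 FPKM in wild type with 0 called, and 40.9 FPKM in CHL2 against 47.3 FPKM in wild type with 0 called. In the control-AAV comparison 7 were listed, with sums of 23.9 FPKM in R6/1 and 25.3 FPKM in wild type and 1 called, Zic4, higher (1.95 in the authors' deposited table; all genes 0.724%). Under Elk-1 AAV the sums were 22.3 FPKM in Elk-1-AAV R6/1 and 24.5 FPKM in control-AAV R6/1, with 0 of 7 called. At an unadjusted p below 0.05 the list had 2, 4, 4, 4 and 1 genes in these 5 tables. The shares of all genes were 5.36%, 14.3%, 13.3%, 10.7% and 4.91%. No listed marker was at 0. Both Zic4 calls had the opposite sign to the list median, which was 0.17 at 4 weeks and -0.24 in the control-AAV comparison. At 4 weeks 6 of 8 markers had the higher value in R6/1 and 2 the lower. With control AAV 3 of 7 had the higher value in R6/1 and 4 the lower. Ngfr and the sum lay on the same side at 4 weeks, in CHL2 and in the control-AAV comparison, and on opposite sides at 8 weeks and under Elk-1 AAV. Gbx2 of this list also stands in the thalamus list given below. The part of cholinergic cells in the Ngfr values was not tested.

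Sort1, on chromosome 3 (mm9, 108087049 to 108164429), encodes sortilin, the partner of p75 for precursor neurotrophins and a sorting receptor for BDNF inside the cell. It was abundant, between 51.5 and 99.8 FPKM. At 4 weeks it read 78.1 FPKM in R6/1 and 70.7 FPKM in wild type (log2 fold change 0.14, p = 0.234 in the authors' deposited table). At 8 weeks it read 79.5 FPKM in R6/1 and 99.8 FPKM in wild type (-0.33, p = 0.0273, q = 0.239 in the authors' deposited table). The wild-type value at 8 weeks was the highest Sort1 level of any group. With control AAV, Sort1 read 51.5 FPKM in R6/1 and 70.9 FPKM in wild type (-0.46, p = 0.0139, q = 0.226 in the authors' deposited table). CHL2 stood at 77.9 FPKM, against 82.0 FPKM in wild type (-0.07, p = 0.547 in the authors' deposited table), and that sign turned to 0.0079 with small RNA rows left out of the scaling. With Elk-1 AAV the level was 58.1 FPKM, against 52.7 FPKM with control AAV (0.14, p = 0.415 in the authors' deposited table).

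Bdnf in tissue blocks of striatum can also come from adhering cortex, so the cortical excitatory neuron list was set beside it. At 8 weeks 7 of 14 listed cortical markers were called lower (all genes 5.34%), with Neurod6 (-0.92) and Fezf2 (-0.73) among them, in the authors' deposited table. Their summed level was 428 FPKM in R6/1 and 633 FPKM in wild type. In the control-AAV comparison 8 of 14 were called lower (all genes 2.51%), with Tbr1 (-1.23), Nrn1 (-1.07) and Neurod6 (-1.05) first in the authors' deposited table, and sums of 800 FPKM in R6/1 and 1482 FPKM in wild type. At 4 weeks 0 of 14 were called, with sums of 504 FPKM in R6/1 and 514 FPKM in wild type. In CHL2 1 of 14 was called higher (all genes 1.67%), Neurod1, at 3.05 FPKM in CHL2 and 1.26 FPKM in wild type (1.28 in the authors' deposited table), and the sums were 493 FPKM in CHL2 and 475 FPKM in wild type. Under Elk-1 AAV 0 of 14 were called and the sums were 1023 FPKM with Elk-1 AAV and 819 FPKM with control AAV. No listed marker was at 0. Bdnf and the cortical sum thus lay on the same side in the 4 comparisons of a model with wild type and on opposite sides under Elk-1 AAV, and the part of cortical cells in the Bdnf values was not tested.

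**Figure D3:**
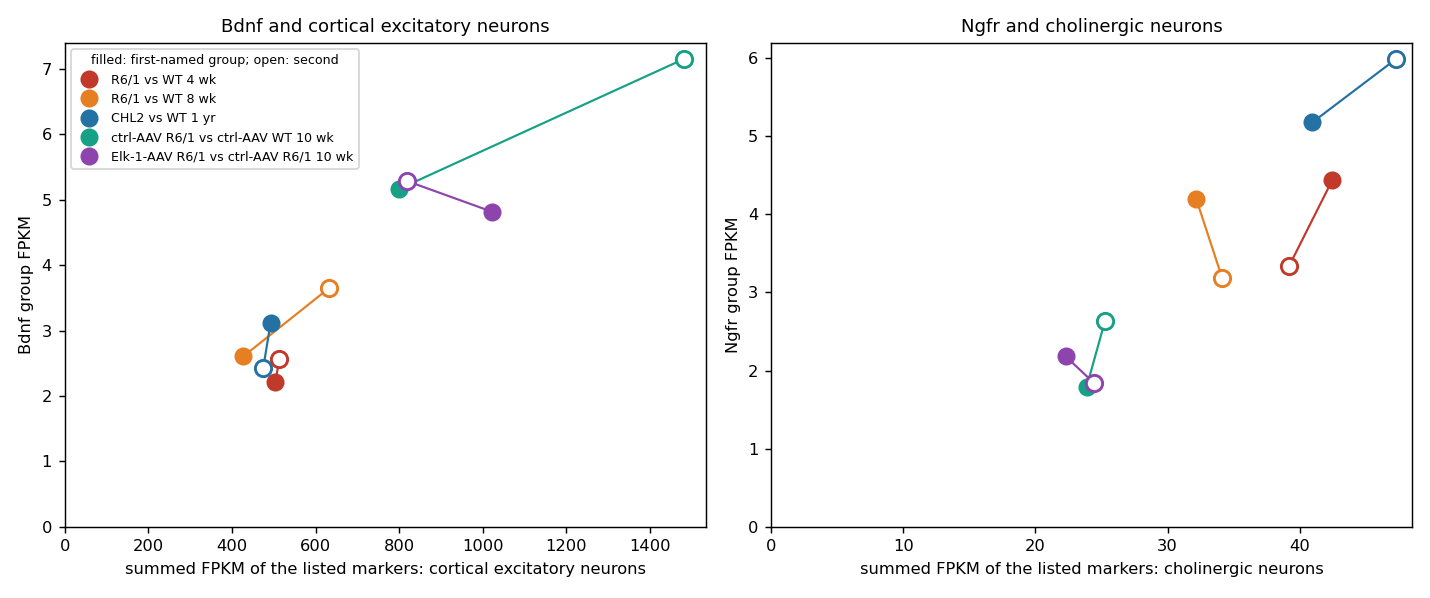
Left, Bdnf FPKM (y axis) against the summed FPKM of the cortical excitatory neuron list (x axis); right, Ngfr FPKM against the summed FPKM of the cholinergic list. Each point is 1 pooled group value, a line joins the 2 groups of a comparison, the first-named group is filled and the group it is set against open; control-AAV wild type has both the highest Bdnf, 7.15 FPKM, and the highest cortical sum, 1482 FPKM.

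The rest of the neurotrophin pathway was followed with 6 lists. Among the other ligands and receptors, the sorting receptor gene Sorcs2, whose product pairs with p75 as sortilin does, fell at 8 weeks to 20.5 FPKM in R6/1, against 28.4 FPKM in wild type (log2 fold change -0.47 with q = 0.00673 in the authors' deposited table). It was the 1 of 6 listed genes called lower there (all genes 5.34%), and 0 of 6 were called in each of the other 4 tables. At an unadjusted p below 0.05 there were 1 gene at 4 weeks (all genes 5.36%) and 1 in CHL2 (13.3%). There were 0 with control AAV (10.7%) and 0 under Elk-1 AAV (4.91%).

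Genes for p75 co-receptors and adaptors held a group that fell in R6/1. At 8 weeks 4 of 14 were called lower (all genes 5.34%), and all 4 encode parts of the Nogo receptor complex or its homologues: Rtn4rl2 (-0.64, q = 0.0354), the Nogo receptor Rtn4r (-0.63, q = 0.00160), the p75 co-receptor Lingo1 (-0.55, q = 0.00430) and Rtn4rl1 (-0.48, q = 0.0101), in the authors' deposited table. Lingo1 fell to 45.5 FPKM in R6/1, against 66.7 FPKM in wild type. Between the control-AAV groups 2 of 14 were called lower (all genes 2.51%). Rtn4r fell to 22.3 FPKM in R6/1, against 46.3 FPKM in wild type (-1.05), and Lingo1 to 54.3 FPKM in R6/1, against 97.2 FPKM in wild type (-0.84), both with q = 0.00312 in the authors' deposited table. Beside these, 7 of 14 cortical excitatory markers were called lower at 8 weeks and 8 of 14 in the control-AAV comparison, as given above. Choroid plexus markers moved there too: 7 of 9 were called lower at 8 weeks (all genes 5.34%), with a summed level of 590 FPKM in R6/1 and 1529 FPKM in wild type. In the control-AAV comparison 4 of 9 were called higher (all genes 0.724%), at 1590 FPKM in R6/1 and 346 FPKM in wild type, and no listed marker was at 0. The part of either tissue in the p75 co-receptor values was not tested. At 4 weeks, in CHL2 and under Elk-1 AAV 0 of 14 co-receptor and adaptor genes were called, and 0 had an unadjusted p below 0.05 in those 3 tables. The list medians were -0.08, -0.09, 0.02, -0.02 and 0.11 in the order of the tables above, beside 0.00, 0.01, 0.00, 0.02 and 0.01 for all genes.

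Genes that cleave, package and carry BDNF went both ways. At 8 weeks 2 of 19 were called lower (all genes 5.34%): the granule protein gene Chgb (-0.45, q = 0.0292) and the prohormone convertase gene Pcsk2 (-0.44, q = 0.0299) in the authors' deposited table. Both were called lower between the control-AAV groups as well, Chgb at 149 FPKM in R6/1 and 244 FPKM in wild type (-0.71) and Pcsk2 at 80.1 FPKM in R6/1 and 124 FPKM in wild type (-0.64), with the neuroserpin gene Serpini1 (-0.60) the third of 18 in the authors' deposited table (all genes 2.51%). Called higher were 3 of 19 in CHL2 (all genes 1.67%): the convertase gene Pcsk1 (0.63), the vesicle priming gene Cadps2 (0.49) and Hap1 (0.42, q = 0.0251) in the authors' deposited table. Hap1 encodes huntingtin-associated protein 1, which links huntingtin to the transport of BDNF vesicles. Hap1 stood at 168 FPKM in CHL2 and 125 FPKM in wild type, and between the control-AAV groups, where it and Pcsk1n (0.57) were called higher of 18 (all genes 0.724%), it rose to 152 FPKM in R6/1, against 79.5 FPKM in wild type (0.93 in the authors' deposited table). Under Elk-1 AAV Hap1 was the 1 of 18 called lower (all genes 0.276%), at 88.3 FPKM with Elk-1 AAV and 155 FPKM with control AAV (-0.82, q = 0.0122 in the authors' deposited table). The last 2 comparisons share the control-AAV R6/1 libraries. Furin, which cleaves neurotrophin precursors in the secretory pathway, stood between 6.68 and 10.1 FPKM, and its p was lowest between the control-AAV groups (0.44, p = 0.0747 in the authors' deposited table). At 4 weeks 0 of 19 were called, and 2 had an unadjusted p below 0.05 (all genes 5.36%).

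Markers of the thalamus, a neighbouring tissue, moved in the same tables as Hap1. Of the thalamus list, which includes Prkcd, 5 of 7 were called higher between the control-AAV groups (all genes 0.724%), with a summed level of 133 FPKM in R6/1 and 48.9 FPKM in wild type, and 5 of 7 were called lower under Elk-1 AAV (all genes 0.276%), at 44.7 FPKM with Elk-1 AAV and 136 FPKM with control AAV. In CHL2 3 of 8 were called higher (all genes 1.67%), at 89.6 FPKM in CHL2 and 63.6 FPKM in wild type. At 8 weeks 3 of 8 were called higher (all genes 0.789%), at 62.6 FPKM in R6/1 and 42.6 FPKM in wild type, and at 4 weeks 1 of 7, Prkcd, was called lower (all genes 0.193%), at 53.1 FPKM in R6/1 and 64.3 FPKM in wild type. Hap1 was not called at either of these ages. At 8 weeks it stood at 108 FPKM in R6/1 and 85.6 FPKM in wild type (0.33, p = 0.022, q = 0.212 in the authors' deposited table). At 4 weeks it stood at 93.0 FPKM in R6/1 and 115 FPKM in wild type (-0.30, p = 0.0116, q = 0.497 in the authors' deposited table). No listed thalamus marker was at 0, and the part of that tissue in the values of Hap1 was not tested.

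**Figure D4:**
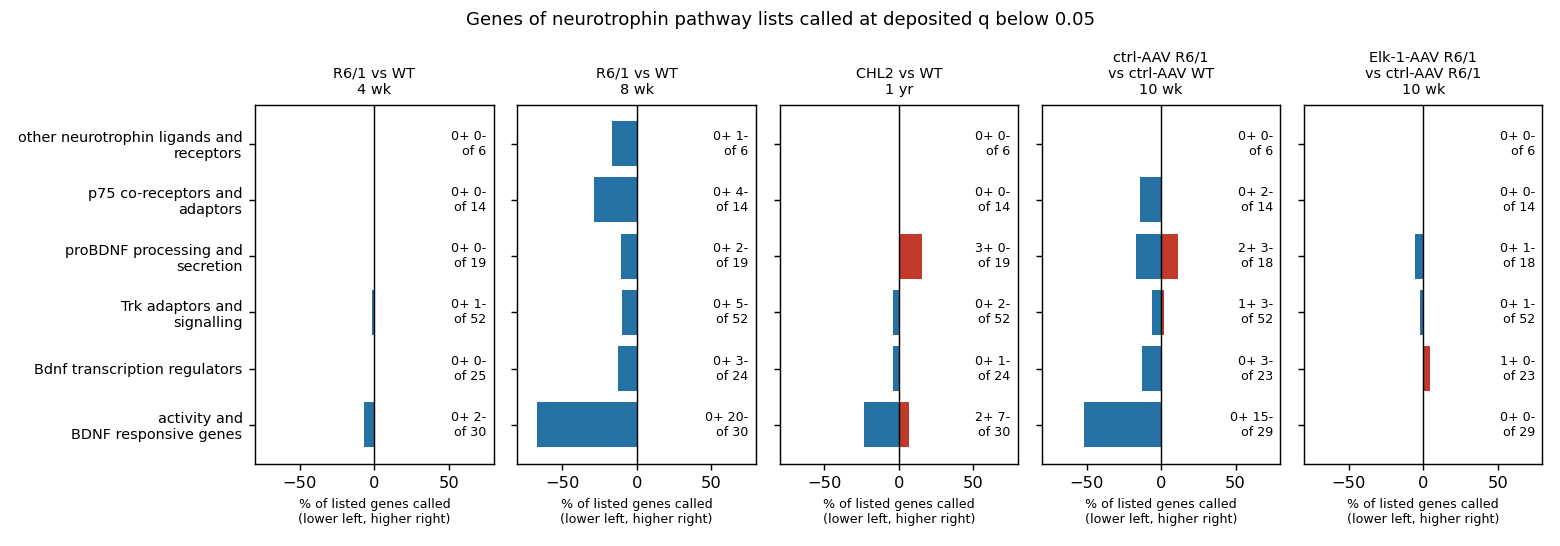
Share of the listed genes of 6 neurotrophin pathway lists (rows) with a deposited q below 0.05 in each of the 5 comparisons (panels); bars to the right are genes called higher, bars to the left genes called lower, and the text gives both counts and the number listed. The longest bar is that of activity and BDNF responsive genes at 8 weeks, 20 of 30 lower.

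Most genes of Trk signalling were not called. At 8 weeks 5 of 52 were called lower (all genes 5.34%), led by the calcium-dependent kinase gene Camk4 (-0.92), the kinase gene Rps6ka5 (-0.76) and the feedback inhibitor gene Spry2 (-0.72, 21.0 FPKM in R6/1 against 34.6 FPKM in wild type) in the authors' deposited table. Between the control-AAV groups Camk4 (-0.98), Camk2a (-0.73) and Spry2 (-0.69, q = 0.0389) were called lower (all genes 2.51%) and Prkcd (1.59) higher (all genes 0.724%), of 52, in the authors' deposited table. In CHL2 Spry2 (-0.42, q = 0.0286) and Hras1 (-0.41, q = 0.0111) were the 2 of 52 called lower (all genes 1.97%) in the authors' deposited table. Prkcd, which encodes protein kinase C delta and is also a thalamus marker, was the 1 of 52 called at 4 weeks (-0.96; lower, all genes 0.193%) and the 1 called under Elk-1 AAV (-1.62; lower, all genes 0.276%) in the authors' deposited tables. The TrkB scaffold gene Kidins220 stood at 75.03 FPKM in R6/1 and 75.2 FPKM in wild type at 8 weeks (p = 0.987 in the authors' deposited table). Slitrk5, which encodes a co-receptor of TrkB in the striatum, stood at 18.3 FPKM in R6/1 and 18.1 FPKM in wild type at 8 weeks (p = 0.903 in the authors' deposited table).

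Of the factors that act on Bdnf transcription, Npas4 was the recurrent call. This neuronal activity factor fell at 8 weeks to 4.29 FPKM in R6/1, against 8.14 FPKM in wild type (-0.92), in CHL2 to 8.05 FPKM, against 14.2 FPKM in wild type (-0.82), and in control-AAV R6/1 to 5.14 FPKM, against 12.7 FPKM in control-AAV wild type (-1.30), in the authors' deposited tables. With it, Bhlhe40 (-0.69) and Srf (-0.49, q = 0.00556) made 3 of 24 called lower at 8 weeks (all genes 5.34%), and Bhlhe40 (-1.15) and Mef2c (-0.80) made 3 of 23 between the control-AAV groups (all genes 2.51%), in the authors' deposited tables. Mef2c is also in the cortical excitatory neuron list, and its call there is the same one. In CHL2 Npas4 was the 1 of 24 called (lower, all genes 1.97%). At 4 weeks 0 of 25 were called, with 6 at an unadjusted p below 0.05 (all genes 5.36%). Under Elk-1 AAV the 1 of 23 called was Elk1 itself (higher, all genes 0.299%). Creb1 stood at 9.21 FPKM in R6/1 and 9.44 FPKM in wild type at 8 weeks (p = 0.780 in the authors' deposited table). Htt, whose normal product promotes Bdnf transcription and transport, stood at 21.4 FPKM in R6/1 and 21.7 FPKM in wild type at 8 weeks (p = 0.878 in the authors' deposited table).

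Genes induced by activity and by BDNF were the pathway list with the most calls in each comparison with wild type. At 8 weeks 20 of 30 were called lower (all genes 5.34%; list median -0.87, all genes 0.01), with Egr2 (-3.15), the activin subunit gene Inhba (-1.68) and Arc (-1.24) lowest in the authors' deposited table. Arc, a synaptic immediate-early gene, fell to 27.0 FPKM in R6/1, against 63.8 FPKM in wild type. Between the control-AAV groups 15 of 29 were called lower (all genes 2.51%; median -0.84, all genes 0.02), led by Egr2 (-2.25), the phosphatase gene Dusp1 (-2.10) and Btg2 (-1.95) in the authors' deposited table. In CHL2 7 of 30 were called lower (all genes 1.97%), with Ier2 (-0.75, q = 0.0319), Egr2 (-0.69, q = 0.00750) and Egr4 (-0.52, q = 0.00539) first, and Nr4a3 (0.70) and Pcsk1 (0.63) higher (all genes 1.67%), in the authors' deposited table; the list median was -0.20. At 4 weeks Egr2 (-0.73, q = 0.0145) and Arc (-0.46, q = 0.0428) were the 2 of 30 called lower (all genes 0.193%; median -0.24, all genes 0.00) in the authors' deposited table. Under Elk-1 AAV 0 of 29 were called, with 5 at an unadjusted p below 0.05 (all genes 4.91%) and a median of 0.03. This list and the cortical list share Nrn1, and Pcsk1 is also in the list of genes that cleave, package and carry BDNF. Projection neuron markers were lower beside the activity list: 17 of 18 were called lower at 8 weeks (all genes 5.34%), 17 of 18 in CHL2 (1.97%) and 14 of 18 between the control-AAV groups (2.51%). At 4 weeks 2 of 18 were called lower (all genes 0.193%), while 17 of 18 had the lower value in R6/1 (list median -0.28). Of the 18, 10 had an unadjusted p below 0.05 (all genes 5.36%). The values of the activity list and those of Bdnf come from the same pools, and no relation between them was tested.

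The genes whose levels ran most like a member's were found by Pearson correlation of log2(FPKM + 1) over the 9 groups, among 12527 genes. With 9 pooled points from separate normalisations, this describes the pools only. For Bdnf they were Pfkp (r = 0.97), Rtn4rl2 (0.97) and Rps6kc1 (0.96). Rtn4rl2 ranged from 7.91 to 25.5 FPKM and is also in the p75 co-receptor list. For Ntrk2 they were Bcl9l, Dopey2 and Heg1 (0.998, 0.998 and 0.996), for Ntrk3 Shisa7, Cdh8 and Fgf11 (0.994, 0.992 and 0.987), for Ngfr Park2 (0.98), Dennd4b (0.97) and Rbmx (0.97), and for Sort1 Cyfip2 (0.99), Prkce (0.98) and Camk1d (0.98). Ntf3, with 8 group values, was not compared.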

How the data were processed

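Striatal RNA of 26 libraries in 9 groups was prepared with a TruSeq kit and sequenced by the authors, per the labels' protocols. Cufflinks, Cuffdiff, TopHat and Bowtie and the build mm9 are named, without versions, per the submitters' processing notes. The strandedness of counting is not stated. Each of the 5 tables that the authors deposited covers 1 comparison, with 1 FPKM value per group pooled over its libraries, a log2 fold change (model or Elk-1 AAV group over the group it is set against), a test statistic (a score), a p-value and a q-value. Read counts and depth per library are unknown, so no SD or interval could be computed, and the planned limma fits could not be run. The q-values matched a Benjamini-Hochberg adjustment of the p-values within 5.2e-07. A gene is called, and said to have risen or fallen, at a deposited q below 0.05. The deposited p-values come from the authors' Cuffdiff test on libraries, and the spread between libraries may be technical.

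The members, the 6 pathway lists and the 10 cell type lists were chosen with earlier results of these data known. Of each list, the called genes with the largest fold changes were named, at most 3 per direction. Rtn4rl1 as the last of 4 calls and the uncalled Furin, Kidins220, Slitrk5 and Creb1 were added after their values were seen. The uncalled astrocyte markers Slc1a2, Slc1a3, Aqp4 and Gfap were also named outside that rule. Some genes of the lists are counted but not reported here by name. No member shares its listed position with another row. Promoter windows are RefSeq's on GRCm38.p6, and transcript lengths are GENCODE M21's, matched for at least 98.8% of genes. The adjustment and the trend were tested on simulated data. The 3 genes nearest each member in level were named too. Python 3.11.15, numpy 2.4.6 and pandas 2.3.3 were used. Alternatives are given in the closing section.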

Additional observations from a re-analysis of the deposited data

How the results depend on the processing

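No paired analysis was possible because the tables hold 1 pooled value per group; leaving out a replicate was not run for the same reason. The count of called members was 0 in all 5 comparisons under each of the 4 alternatives: a q threshold of 0.1, one of 0.01, and p-values adjusted again after dropping genes whose mean FPKM was under 0.5 or under 2. The smallest member q after these adjustments was 0.146 (Bdnf at 8 weeks). Over pseudocounts of 1 and 0.1, median centring, scaling without small RNA rows and removal of the transcript length trend, 137 of 143 member fold changes kept their sign; the length trend was not removed for Ntf3 where its mean FPKM was under 1. The 6 that turned were, without the length trend, Ntrk2 (-0.054) and Ntrk3 (-0.15) at 4 weeks and Ntrk2 (-0.043) and Ntrk3 (-0.16) in CHL2, and with the other scaling Sort1 in CHL2 (0.0079) and Ntrk3 under Elk-1 AAV (-0.0097); none of these was called. Htt, also not called, turned to -0.056 at 4 weeks, 0.023 at 8 weeks and -0.15 in CHL2 without the length trend. It turned to 0.061 at 8 weeks and -0.050 under Elk-1 AAV with the other scaling, and to -0.0079 under Elk-1 AAV after centring. Elk1 and the called genes named by the rule of at most 3 per list and direction kept their sign. Genes named outside that rule were not checked. Values that kept their sign but moved by over 1.5 times were those of Ntf3 with 1 added, as given, Sort1 at 4 weeks without the length trend (0.050), and several with the other scaling: Ntrk2 (-0.022) and Ntrk3 (-0.098) at 8 weeks, Ngfr in CHL2 (-0.13), Ntrk2 with control AAV (0.10), and Ntrk2 (0.075) and Sort1 (0.083) under Elk-1 AAV. Ntrk2 with control AAV also moved after centring, to 0.022. Some fold changes that turned under another alternative also moved this far with their sign kept. With the other scaling these were Ntrk3 at 4 weeks (0.069), and Ntrk2 (0.18) and Ntrk3 (0.12) in CHL2. Without the length trend they were Sort1 in CHL2 (-0.19) and Ntrk3 under Elk-1 AAV (0.12). The Bdnf fold change ran from -0.49 to -0.37 at 8 weeks and from 0.26 to 0.44 in CHL2. Scaling without small RNA rows moved all values of a table by between -0.056 and 0.082.

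Of 640 counts of called list genes, 37 moved by more than 1.5 times, 23 of them at q below 0.01, where the 4-week and Elk-1 AAV tables hold no q and every count is 0 by construction. In the other tables that threshold left 2 of the 4 lower p75 co-receptor genes and 0 of the 2 lower processing genes at 8 weeks, 3 of the 7 lower activity genes and 0 of the 2 lower Trk genes in CHL2, and 1 of 3 lower and 1 of 2 higher processing genes between the control-AAV groups. At q below 0.1, Trk genes called higher numbered 1 at 4 weeks and 2 in CHL2, against 0, and activity genes called higher 1 under Elk-1 AAV, against 0.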
